A study of Mus musculus with 27 samples.

Results

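The genes described here encode the enzymes of glycolysis and of pyruvate use, the transporters that move glucose and lactate across the plasma membrane, and the transcription factors Hif1a and Myc, in 9 sorted populations of mouse T cells. The 36 genes were listed by name for their place in the pathway, with earlier results of these data known. Each gene was represented by its brightest probe set with a single gene symbol over the 27 arrays, and 33 of the 36 were measured in this way among 18194 genes in all. Eno1, Gpi1 and Pfkfb1 had no such probe set and were not analysed here, so a widely expressed enolase and the glucose phosphate isomerase step are missing from the description.

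Messenger RNA was measured on 27 Affymetrix 3' expression arrays, 3 for each group, in T cells of BALB/c mice. Foxp3 is the transcription factor that marks regulatory T cells (Tregs), and thymocytes that expressed it were divided by CD24, a surface protein lost as thymocytes mature, into Foxp3+ CD24hi, Foxp3+ CD24int and Foxp3+ CD24lo cells. Treg precursors, which the series title gives as CD4 single-positive, Foxp3GFP- and CD25+, formed a further thymic group. The corresponding Foxp3- thymocytes were again CD24hi, CD24int or CD24lo. Lymph node Tregs (LN Treg) and naive T cells of lymph node (LN naive) were the peripheral groups. The labels name green fluorescent protein beside Foxp3 in the 6 CD24 groups, so the Foxp3 gates rest on a reporter whose construct, cross and purity they do not give. The source labels of the Foxp3- groups carry the word Treg, but the series design calls these cells conventional, and they were treated as such. No label gives the age or sex of the mice, the CD24 level of the precursors, or whether replicates were separate animals, and the p-values therefore cover only the spread between these samples.

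Glycolysis splits glucose into pyruvate in a chain of cytosolic reactions. Pyruvate is either reduced to lactate by lactate dehydrogenase or taken into mitochondria and oxidised by the pyruvate dehydrogenase complex, which pyruvate dehydrogenase kinases switch off. Many steps are catalysed by isozymes from separate genes that are typical of different tissues. In mouse T cells, glucose uptake and glycolytic gene expression are known to go up after antigen receptor stimulation through Myc and the hypoxia-inducible factor HIF-1, and Foxp3 is known to restrain that programme in Tregs.

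Foxp3 and Il2ra followed the labels. Foxp3 averaged 9.90 to 10.07 log2 units in the 3 Foxp3+ thymocyte groups and LN Treg, against 3.97 ± 0.17 (SD, n = 3) in Treg precursors and 3.80 to 4.17 in the 4 other Foxp3- groups. Il2ra, the CD25 gene, was at 8.16 ± 0.29 in precursors, against 4.42 ± 0.23 in Foxp3- CD24hi cells. The mean of Foxp3, Il2ra and Cd24a, the CD24 gene, was 7.96 in precursors, against 6.39 in Foxp3- CD24hi cells. Beside the Foxp3 and Il2ra values just given, these means put Cd24a higher in precursors as well. Levels of Cd24a by itself are not given here, and its part in the comparisons of precursors was not tested. The T cell genes Cd3e, Cd3g and Cd4 were at 8.20 or above on every array. Foxp3- CD24lo cells averaged 9.18 over the 6 measured of 7 listed markers of innate-like T and natural killer cells (arrays 9.13 to 9.22), against 5.97 in Foxp3- CD24int and 4.39 in Foxp3- CD24hi cells. Replicate 3 of Foxp3- CD24hi averaged 9.63 over 6 liver genes, against 4.11 to 4.56 on the 26 other arrays, and the 6 calls of members that were lost without it are listed after the comparisons of Foxp3- cells. The mean of 19 cell cycle genes ran from 7.53 in LN naive to 9.45 in Foxp3- CD24int cells, and was higher on arrays numbered 1, so results were also computed without these 9 arrays.

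All levels are log2 values of the authors' intensities, compared between groups for 1 probe set at a time and never between genes. Differences are log2 values, first named group minus second, ± the standard error of a limma model across all 27 arrays. A gene is said to have risen, fallen or changed, or to be called, where its Benjamini-Hochberg adjusted p over the 18194 genes, in limma, was under 0.05. Groups are said to be apart where their arrays did not overlap. The genes shown in this way were mostly picked for a small p or a wide range of group means. That their arrays lie apart is therefore no separate support, and the share of all genes that do is not given here. In sorted pools, a smaller number of cells that express a gene and less of its RNA in each cell cannot be told apart.

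Over the 9 groups the members varied unequally. Eno2 had the widest range of group means, at 4.32 log2 units, followed by Eno3 (3.20), Galm (2.38), Ldhb (2.23), Tpi1 (1.84), Pdk1 (1.77), Aldoc (1.73) and Slc2a3 (1.68). At the other end, group means of Hk1 spanned 0.19 and those of Ldha 0.21 log2 units. Hk1, Ldha, Pfkl, Pfkfb2, Pdhb, Dlat and Pdk4 were called in 0 of the 17 comparisons with the representative probe sets and no block for the replicate number. For Pfkfb2 this depends on the probe set. Another, with a mean of 4.85, differed by -1.13 between Foxp3- CD24lo and Foxp3- CD24hi cells. There the one used, with a mean of 5.42, stood at -0.0015 and the dimmest ones at -0.04 and -0.27. Dlat and Ldha were each called in 1 comparison with that block, given below. Pdk4 and Slc16a3 were dim, with means below 5 log2 units in every group, and so were Eno2 in LN naive (4.14 ± 0.20) and Foxp3- CD24lo cells (4.78 ± 0.16), Aldoc in 3 groups and Pdk2 in 6 groups. Differences that rest on such groups are compressed, and the width of the Eno2 range is limited by its dim end.

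**Figure D1:**
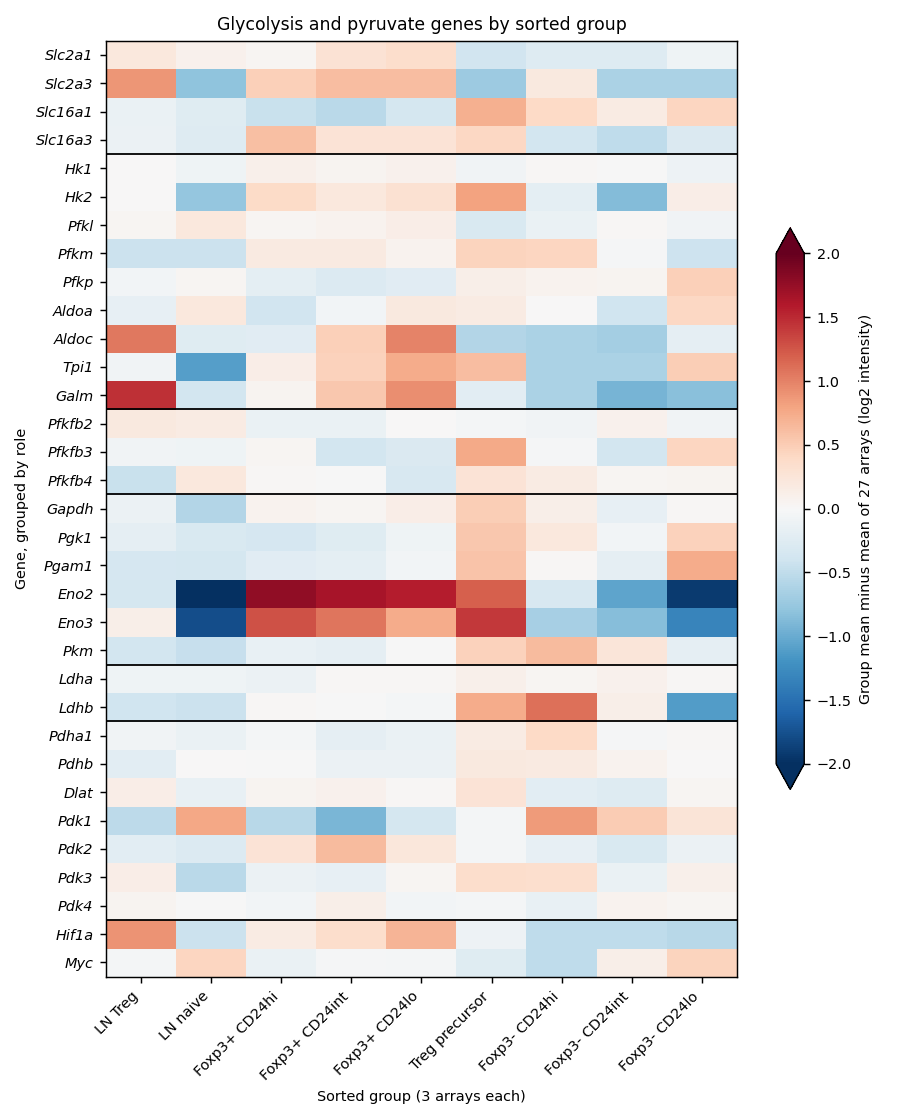
Group means of the 33 measured genes, each as the difference from that gene's mean over all 27 arrays (colour, log2 units, capped at 2), with genes in rows divided by role and the 9 groups of 3 arrays in columns. Eno2 and Eno3 show the strongest colours, high in Foxp3+ thymocytes and precursors and low in LN naive and Foxp3- CD24lo cells, while the rows of Hk1 and Ldha are nearly blank.

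**Figure D2:**
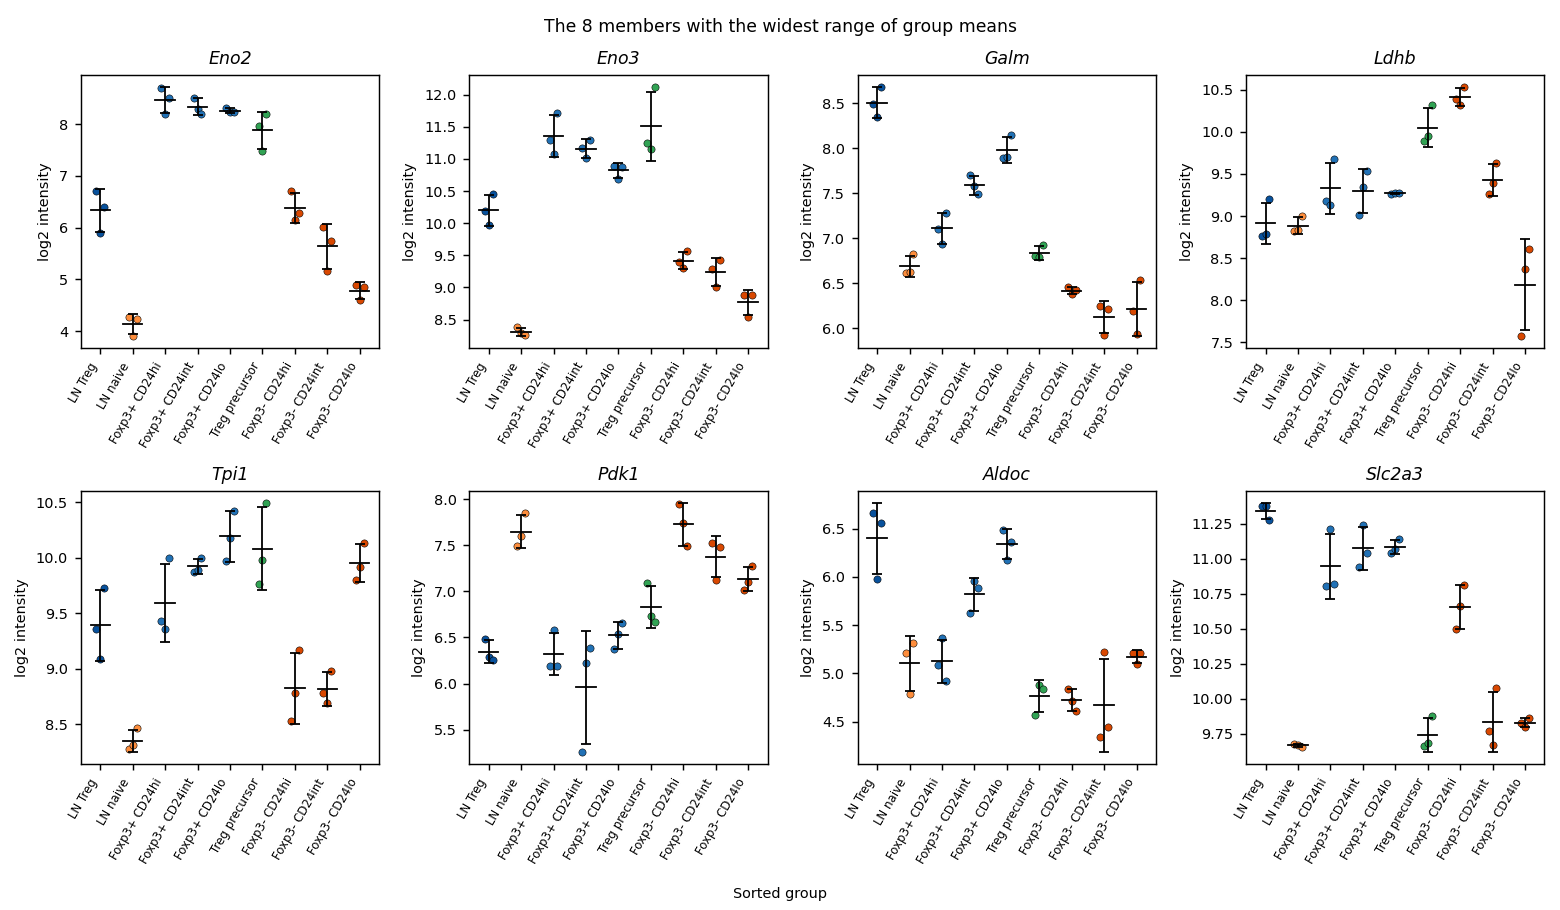
Levels of the 8 members with the widest range of group means (y axis, log2 intensity) in each of the 9 groups (x axis). Points are arrays, horizontal bars are means and error bars are SD of 3 arrays. Eno2 and Eno3 arrays of the Foxp3+ thymocyte groups all lie above those of the Foxp3- CD24 groups.

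The first question of the design is how Foxp3+ and Foxp3- thymocytes of the same CD24 gate differ. Enolases, a glucose transporter, galactose mutarotase and Hif1a were higher in Foxp3+ cells, whereas a lactate transporter and the kinase gene Pdk1 were lower. At CD24hi, the least mature gate, 8 of the 33 members rose and 6 fell, where 8.38% of all genes rose and 9.65% fell. At CD24int, 11 rose and 2 fell, where 8.66% of all genes rose and 6.62% fell. At CD24lo, 9 rose and 7 fell, where 9.85% of all genes rose and 11.2% fell. In lymph node, 10 members were higher and 3 lower in LN Treg than in LN naive, where 8.01% of all genes rose and 4.35% fell. Averaged over the 3 CD24 gates, 11 members rose and 7 fell, where 14.5% of all genes rose and 16% fell. The members' median difference was 0.06, 0.06 and 0.10 along the gates, 0.08 in lymph node and 0.02 averaged, beside 0.00, -0.01, -0.01, -0.04 and -0.01 over all genes.

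Markers of other cells and of division moved with these class comparisons. The 19 cell cycle genes averaged 8.34 in Foxp3+ CD24hi cells, against 8.70 in Foxp3- CD24hi cells (0 of 19 rose and 3 fell). They averaged 8.06, against 9.45, at CD24int (0 of 19 rose and 15 fell) and 7.94, against 8.96, at CD24lo (0 of 19 rose and 11 fell). In lymph node they were at 8.62 in Treg, against 7.53 in naive cells (7 of 19 rose and 0 fell). Innate-like markers averaged 5.18 in Foxp3+ CD24hi cells, against 4.39 in Foxp3- CD24hi cells (2 of 6 rose and 0 fell). They stood at 5.20, against 5.97, at CD24int (1 of 6 rose and 4 fell) and at 5.08, against 9.18, at CD24lo (1 of 6 rose and 5 fell). In lymph node they were at 5.43 in Treg, against 6.84 in naive cells (1 of 6 rose and 4 fell). Double-positive markers were at 5.45 in Foxp3+ CD24hi cells, against 6.41 in Foxp3- CD24hi cells (0 of 6 rose and 3 fell). The part of these markers in the members' differences was not tested.

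Some class calls depended on which arrays or gates entered. The averaged comparison uses the same arrays as the single gates, and its 9 arrays a side are not independent where same-numbered arrays deviated together. Without the CD24lo groups the averaged call of Pgam1 was lost (-0.13, adjusted p = 0.575) and that of Ldhb gained (-0.61, adjusted p = 0.00178).

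**Figure D3:**
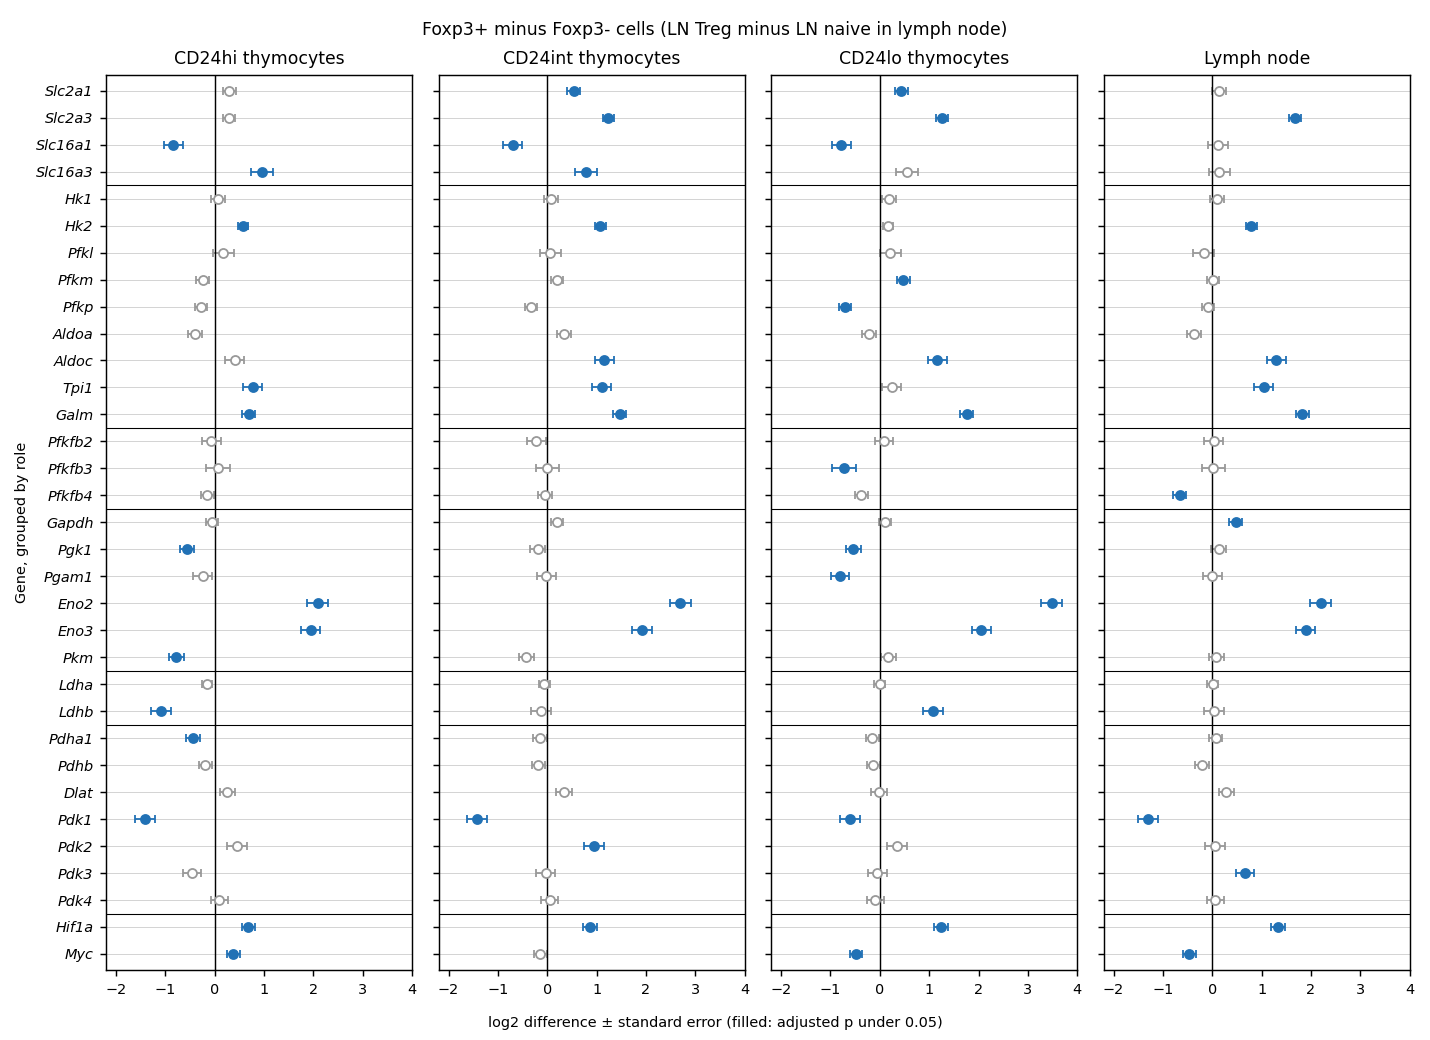
Difference of each of the 33 genes (x axis, log2 units ± standard error, limma) between Foxp3+ and Foxp3- thymocytes at CD24hi, CD24int and CD24lo and between LN Treg and LN naive (panels), with filled points for an adjusted p under 0.05. Eno2, Eno3, Galm and Hif1a are filled to the right of 0 in all 4 panels, and Pdk1 is filled to the left of 0 in all 4.

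The enolases, which make phosphoenolpyruvate, had the largest differences. Eno2 encodes the isozyme typical of neurons and Eno3 the isozyme typical of muscle. Eno2 stood at 8.69, 8.19 and 8.51 on the Foxp3+ CD24hi arrays, against 6.70, 6.14 and 6.28 on the Foxp3- CD24hi arrays. At CD24int the Foxp3+ arrays were at 8.51, 8.29 and 8.19, against 6.01, 5.16 and 5.73 in Foxp3- cells. At CD24lo they were at 8.31, 8.24 and 8.22, against 4.89, 4.59 and 4.84. Every Foxp3+ thymocyte array was above every array of the Foxp3- CD24 groups. Treg precursors, also Foxp3-, stood at 7.97, 7.49 and 8.19, the last level with the lowest Foxp3+ thymocyte array (8.19). The differences were 2.09 ± 0.21, 2.69 ± 0.21 and 3.48 ± 0.21, with adjusted p of at most 5.15e-08. LN Treg arrays were at 6.71, 5.89 and 6.41, against 4.28, 3.91 and 4.23 in LN naive cells (2.19 ± 0.21, adjusted p = 2.43e-08). These groups did not overlap either, although LN Treg lay below all Foxp3+ thymocytes.

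Eno3 was at 11.29, 11.08 and 11.72 in Foxp3+ CD24hi cells, against 9.39, 9.30 and 9.56 in Foxp3- CD24hi cells. It was at 11.18, 11.01 and 11.30 in Foxp3+ CD24int cells, against 9.29, 9.01 and 9.43 in Foxp3- CD24int cells, and at 10.90, 10.69 and 10.88 in Foxp3+ CD24lo cells, against 8.88, 8.54 and 8.88 in Foxp3- CD24lo cells. LN Treg arrays were at 10.19, 9.97 and 10.45, against 8.38, 8.29 and 8.26 in LN naive. The groups were apart in all 4 pairs, by 1.94 ± 0.19, 1.92 ± 0.19 and 2.06 ± 0.19 along the gates and by 1.89 ± 0.19 in lymph node, with adjusted p of at most 6.07e-08. Treg precursors, which are Foxp3-, had the highest group mean of Eno3 (11.51), so a high level was not particular to Foxp3+ cells. The mean of 6 skeletal muscle genes was 4.82 in Foxp3+ CD24hi cells, against 4.92 in Foxp3- CD24hi cells, and that of 5 measured of 6 brain genes 5.16, against 5.35. Over all 9 groups these means lay between 4.69 and 4.93 for muscle and between 5.06 and 5.35 for brain. Each enolase had a single usable probe set, so no other probe set tests these values.

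The sequences around a listed start site of each enolase gene are shown because both genes rose in Foxp3+ cells in all 4 class comparisons. Those of Ldha and Pgk1 are set beside them because they hold the letters that HIF-1 is known to bind. The windows run from 250 bases before to 50 after the start site and are from RefSeq (GRCm38.p6). For Eno3 and Ldha the start site lies inside the gene, whose span begins at 70653125 and 46842274, respectively. The sequence before those positions was not searched. Of the 33 members, 30 matched the RefSeq table, with 44 windows, and Galm, Myc and Slc2a3 had no entry. Capitals mark ACGTG, the core of the hypoxia response element, on either strand (CACGT where it lies on the other strand). The motif CACGTG, an E-box that Myc is known to bind, reads the same on both strands and so counts as ACGTG on each.
Eno3, chr11:70656926-70657225, plus strand: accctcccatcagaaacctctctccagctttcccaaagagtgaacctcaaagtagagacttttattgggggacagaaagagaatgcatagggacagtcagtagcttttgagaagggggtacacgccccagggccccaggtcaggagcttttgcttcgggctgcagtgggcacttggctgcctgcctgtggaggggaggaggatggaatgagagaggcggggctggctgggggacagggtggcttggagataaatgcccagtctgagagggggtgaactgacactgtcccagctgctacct
Eno2, chr6:124769624-124769923, minus strand: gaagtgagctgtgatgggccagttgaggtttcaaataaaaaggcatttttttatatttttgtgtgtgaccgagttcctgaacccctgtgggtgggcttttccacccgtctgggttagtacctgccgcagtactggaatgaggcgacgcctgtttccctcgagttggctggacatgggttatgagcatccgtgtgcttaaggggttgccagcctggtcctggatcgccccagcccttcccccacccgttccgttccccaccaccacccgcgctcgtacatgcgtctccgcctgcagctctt
Ldha, 1 of its 2 windows, chr7:46845554-46845853, plus strand: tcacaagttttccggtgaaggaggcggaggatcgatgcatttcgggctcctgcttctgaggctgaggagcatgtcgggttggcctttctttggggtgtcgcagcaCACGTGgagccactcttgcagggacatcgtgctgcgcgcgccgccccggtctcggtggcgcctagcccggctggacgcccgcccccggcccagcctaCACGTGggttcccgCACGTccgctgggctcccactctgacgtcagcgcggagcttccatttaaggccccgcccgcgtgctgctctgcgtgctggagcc
Pgk1, chrX:106186850-106187149, plus strand: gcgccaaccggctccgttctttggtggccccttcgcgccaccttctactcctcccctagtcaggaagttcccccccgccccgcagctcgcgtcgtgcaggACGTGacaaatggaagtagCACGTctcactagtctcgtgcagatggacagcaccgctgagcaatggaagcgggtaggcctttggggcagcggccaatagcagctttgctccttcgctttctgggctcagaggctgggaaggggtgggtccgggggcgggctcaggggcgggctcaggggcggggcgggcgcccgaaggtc

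Neither enolase window held ACGTG. The Ldha window held 5 matches over both strands, 4 of them from the pair of CACGTG sites, and the Pgk1 window held 2. Among members, 19 of 30 genes (63.3%) had ACGTG in at least 1 window, against 5886 of 27025 genes (21.8%) with windows in the table. CACGTG was in 7 of 30 members (23.3%), against 8.09% of all genes. The motif GTAAACA, searched on both strands and typical of the forkhead family to which Foxp3 belongs, was in 1 of 30 members (3.33%), against 4.05% of all genes. Member windows had a median GC content of 61.3%, against 52.7% over all windows, and the part of base composition in these shares was not tested. Of the 8 widest-ranging members, Eno2, Eno3, Ldhb, Tpi1 and Pdk1 had no ACGTG in these windows and Aldoc had 1 match. A match is a run of letters and says nothing about binding in these cells.

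Among the transporters, the glucose carriers Slc2a3 and Slc2a1 were higher in Foxp3+ cells at CD24int and CD24lo, and the lactate carrier Slc16a1 was lower at all 3 gates. Slc2a3 encodes the glucose transporter GLUT3. It was at 10.94, 11.24 and 11.04 in Foxp3+ CD24int cells, against 9.77, 9.67 and 10.08 in Foxp3- CD24int cells. It was at 11.04, 11.07 and 11.14 in Foxp3+ CD24lo cells, against 9.83, 9.79 and 9.86 in Foxp3- CD24lo cells. LN Treg arrays stood at 11.38, 11.37 and 11.28, against 9.67, 9.67 and 9.66 in LN naive. None of these pairs overlapped, and the gene rose by 1.24 ± 0.12, 1.26 ± 0.12 and 1.68 ± 0.12, with adjusted p of at most 2.38e-08. At CD24hi the arrays were at 10.81, 11.21 and 10.82, against 10.50, 10.66 and 10.81, and the difference was not called (0.29 ± 0.12, adjusted p = 0.101).

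Slc2a1, the gene of the broadly expressed transporter GLUT1, rose at CD24int (0.54 ± 0.14, adjusted p = 0.00629) and CD24lo (0.43 ± 0.14, adjusted p = 0.0214) and was not called in lymph node (0.13 ± 0.14). Its CD24int call was lost without Foxp3+ CD24int replicate 1, without the arrays numbered 1 or with the compared groups alone in the model (0.34 to 0.54, adjusted p up to 0.068). Its CD24lo call was lost without any 1 of Foxp3+ CD24lo replicate 1 and Foxp3- CD24lo replicate 2 (0.35 to 0.36, adjusted p up to 0.127). Slc16a1 encodes MCT1, which carries lactate and pyruvate. It was at 7.88, 7.77 and 8.22 in Foxp3+ CD24hi cells, against 8.53, 8.86 and 8.99 in Foxp3- CD24hi cells, and fell at each gate (-0.84 ± 0.20, -0.70 ± 0.20 and -0.78 ± 0.20, adjusted p of at most 0.0134). The CD24int call was lost without any 1 of Foxp3+ CD24int replicate 1 and Foxp3- CD24int replicate 3 (-0.53 to -0.50, adjusted p up to 0.118). LN Treg arrays were at 8.24, 8.16 and 8.40, against 7.97, 8.12 and 8.36 in LN naive, which overlapped and were not called (0.11 ± 0.20). The dim Slc16a3, which encodes the lactate exporter MCT4, rose at CD24hi (0.96 ± 0.22, adjusted p = 0.00205) and at CD24int (0.78 ± 0.22, adjusted p = 0.0136). The CD24int call was lost without the arrays numbered 1 or with 16 added before the log (0.36 to 0.78, adjusted p up to 0.0658).

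Upper glycolysis takes glucose to the triose phosphates. Hk2, a hexokinase that T cells induce on activation, was at 6.62, 6.39 and 6.53 in Foxp3+ CD24hi cells, against 5.97, 5.82 and 6.01 in Foxp3- CD24hi cells (0.58 ± 0.11, adjusted p = 0.000245). It was at 6.22, 6.31 and 6.47 in Foxp3+ CD24int cells, against 5.14, 5.37 and 5.26 in Foxp3- CD24int cells (1.08 ± 0.11, adjusted p = 3.23e-08). At CD24lo the arrays were at 6.51, 6.36 and 6.39, against 6.27, 6.23 and 6.28, apart but not called (0.16 ± 0.11, adjusted p = 0.347). LN Treg arrays, at 6.17, 5.94 and 6.29, were all above LN naive, at 5.34, 5.37 and 5.33 (0.79 ± 0.11, adjusted p = 4.14e-06). Hk1, the constitutive hexokinase, differed by 0.06 to 0.18 in these 4 comparisons and was called in 0 of them.

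Tpi1, the triose phosphate isomerase gene, was called in the same 3 pairs as Hk2. It was at 9.43, 9.36 and 10.00 in Foxp3+ CD24hi cells, against 8.53, 8.78 and 9.17 in Foxp3- CD24hi cells (0.77 ± 0.19, adjusted p = 0.0054). It was at 9.87, 9.89 and 10.00 in Foxp3+ CD24int cells, against 8.78, 8.69 and 8.99 in Foxp3- CD24int cells (1.10 ± 0.19, adjusted p = 0.00016). CD24lo arrays were at 9.97, 10.18 and 10.43, against 9.80, 9.92 and 10.14, which overlapped (0.24 ± 0.19). In lymph node it was at 9.36, 9.09 and 9.73 in Treg, against 8.28, 8.32 and 8.47 in naive cells (1.04 ± 0.19, adjusted p = 0.000342). The CD24hi call was lost without Foxp3+ CD24hi replicate 3 or without the arrays numbered 1 (0.57 to 0.71, adjusted p up to 0.0667). The other 2 probe sets of Tpi1 differed by 0.83 and 0.89 at CD24hi and by 1.09 and 1.12 in lymph node.

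Galm encodes galactose mutarotase, which interconverts the ring forms of hexoses. Foxp3+ arrays were at 7.11, 6.94 and 7.29 at CD24hi, against 6.46, 6.38 and 6.42 in Foxp3- cells. They were at 7.70, 7.59 and 7.49 at CD24int, against 6.25, 5.92 and 6.22, and at 7.89, 7.91 and 8.15 at CD24lo, against 6.19, 5.93 and 6.53. LN Treg, at 8.50, 8.35 and 8.68, was the highest group, against 6.62, 6.63 and 6.83 in LN naive. The groups were apart in all 4 pairs, with differences of 0.69 ± 0.13, 1.46 ± 0.13, 1.76 ± 0.13 and 1.82 ± 0.13 and adjusted p of at most 0.000451. Its 2 dimmer probe sets differed in the same direction by less, 0.50 and 0.35 averaged over CD24, against 1.31 for the brightest.

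The aldolases split fructose bisphosphate, and Aldoc is the isozyme typical of brain. It was at 5.63, 5.95 and 5.88 in Foxp3+ CD24int cells, against 4.34, 5.22 and 4.44 in Foxp3- CD24int cells (1.15 ± 0.19, adjusted p = 9.43e-05). It was at 6.49, 6.18 and 6.36 in Foxp3+ CD24lo cells, against 5.21, 5.10 and 5.21 in Foxp3- CD24lo cells (1.17 ± 0.19, adjusted p = 5.17e-05). LN Treg was at 6.66, 5.98 and 6.56, against 5.21, 4.78 and 5.31 in LN naive (1.30 ± 0.19, adjusted p = 1.97e-05), and no pair of these overlapped. CD24hi cells did not pass (0.41 ± 0.19, adjusted p = 0.174). The other Aldoc probe set, dim at 3.09 log2 units on average, differed by -0.03 averaged over CD24. Aldoa, the muscle and general isozyme, was called in 0 of these 4 comparisons, at -0.39, 0.34 and -0.21 along the gates and -0.37 in lymph node. With the replicate number as a block in the model, Aldoa was lower at CD24hi (adjusted p = 0.0026) and in LN Treg (adjusted p = 0.00644). With that block 11.3% of all genes rose and 14.2% fell at CD24hi, and 10.9% of all genes rose and 7.22% fell in lymph node.

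Phosphofructokinases commit sugar to glycolysis. Pfkp, the platelet isozyme, was at 9.44, 9.52 and 9.52 in Foxp3+ CD24lo cells, against 10.35, 10.04 and 10.21 in Foxp3- CD24lo cells, apart and lower by the test (-0.71 ± 0.11, adjusted p = 3.65e-05). At CD24hi Pfkp was called lower with the replicate block alone (-0.28, adjusted p = 0.0406). Pfkm, the muscle isozyme, was at 8.05, 7.79 and 7.64 in Foxp3+ CD24lo cells, against 7.37, 7.17 and 7.50 in Foxp3- CD24lo cells, and rose (0.48 ± 0.13, adjusted p = 0.00687). That call was lost without any 1 of Foxp3+ CD24lo replicate 1 and Foxp3- CD24lo replicate 2 or without the arrays numbered 1 (0.37 to 0.39, adjusted p up to 0.0646). Pfkl, the liver isozyme, was called at none of these gates and not in lymph node with the probe set used (-0.18 to 0.21). Its 3 probe sets did not agree at CD24int, at 0.06 for the brightest and 0.58 and 0.10 for the others. PFKFB enzymes set the level of a phosphofructokinase activator. Pfkfb4 was at 5.51, 6.08 and 5.81 in LN Treg, against 6.49, 6.47 and 6.45 in LN naive, and fell (-0.66 ± 0.14, adjusted p = 0.000914). Pfkfb3 was lower in Foxp3+ CD24lo cells (-0.73 ± 0.24, adjusted p = 0.0282), a call lost without any 1 of Foxp3+ CD24lo replicate 1 and Foxp3- CD24lo replicates 1, 2 and 3 or without the arrays numbered 1 (-0.74 to -0.56, adjusted p up to 0.215).

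Of the other genes of lower glycolysis, Pgk1, Pgam1 and Pkm were each lower in Foxp3+ thymocytes at 1 or more gates. Pgk1, phosphoglycerate kinase, was at 10.48, 10.74 and 10.99 in Foxp3+ CD24hi cells, against 11.15, 11.32 and 11.42 in Foxp3- CD24hi cells (-0.56 ± 0.15, adjusted p = 0.00821). It was at 10.87, 11.02 and 11.11 in Foxp3+ CD24lo cells, against 11.28, 11.63 and 11.71 in Foxp3- CD24lo cells (-0.54 ± 0.15, adjusted p = 0.0086). The CD24hi call was lost without Foxp3+ CD24hi replicate 1 (-0.43, adjusted p = 0.0744) and the CD24lo call without Foxp3- CD24lo replicate 3 (-0.45, adjusted p = 0.0591). Pgam1, phosphoglycerate mutase, was at 8.92, 9.24 and 9.34 in Foxp3+ CD24lo cells, against 9.81, 9.89 and 10.21 in Foxp3- CD24lo cells (-0.80 ± 0.19, adjusted p = 0.00214). Pkm, pyruvate kinase, was at 10.42, 10.22 and 10.58 in Foxp3+ CD24hi cells, against 11.24, 11.01 and 11.31 in Foxp3- CD24hi cells (-0.78 ± 0.16, adjusted p = 0.00058). Gapdh, glyceraldehyde phosphate dehydrogenase, was called at none of the CD24 gates. It was higher in LN Treg (0.47 ± 0.13, adjusted p = 0.0126), a call lost without LN Treg replicate 1, without the arrays numbered 1 or averaging all probe sets (0.39 to 0.46, adjusted p up to 0.181).

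Lactate dehydrogenase tetramers are made of A and B chains. Ldha, whose chain favours lactate formation, lay between 11.47 and 11.92 on all 27 arrays. Ldhb, whose chain favours pyruvate formation, was lower in Foxp3+ cells at CD24hi and higher at CD24lo. Foxp3+ arrays stood at 9.18, 9.13 and 9.68 at CD24hi, against 10.39, 10.32 and 10.53 in Foxp3- cells (-1.08 ± 0.20, adjusted p = 0.000239). They were at 9.02, 9.34 and 9.54 at CD24int, against 9.26, 9.39 and 9.63, which overlapped and were not called (-0.13 ± 0.20). At CD24lo they were at 9.26, 9.27 and 9.27, against 7.58, 8.37 and 8.61 (1.08 ± 0.20, adjusted p = 0.000172). All 4 probe sets of Ldhb were lower at CD24hi, the furthest by -1.08, and higher at CD24lo, by 1.08 to 1.54. In lymph node Ldhb was at 8.76, 8.79 and 9.20 in Treg, against 8.82, 8.83 and 9.00 in naive cells, and was not called (0.03 ± 0.20).

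Of the genes of pyruvate dehydrogenase and its kinases, Pdk1 was called in every pair. Its kinase inactivates the complex, and it is a known HIF-1 target. It was at 6.19, 6.58 and 6.19 in Foxp3+ CD24hi cells, against 7.95, 7.75 and 7.49 in Foxp3- CD24hi cells. It was at 5.26, 6.22 and 6.39 in Foxp3+ CD24int cells, against 7.53, 7.12 and 7.49, and at 6.37, 6.54 and 6.66 in Foxp3+ CD24lo cells, against 7.02, 7.10 and 7.28. LN Treg was at 6.49, 6.29 and 6.25, against 7.50, 7.60 and 7.85 in LN naive. In each pair every Foxp3+ or Treg array was below every array of the other group, with differences of -1.41 ± 0.20, -1.42 ± 0.20, -0.61 ± 0.20 and -1.30 ± 0.20 in the order given and adjusted p of at most 0.0332. The CD24lo call was lost without any 1 of Foxp3+ CD24lo replicates 1 and 2 and Foxp3- CD24lo replicates 2 and 3 (-0.63 to -0.53, adjusted p up to 0.127). In lymph node, 3 of its 4 probe sets differed by -1.40 to -0.65, and the dim one by -0.18.

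The other kinases did not share this pattern. Pdk2 was at 5.00, 5.24 and 6.13 in Foxp3+ CD24int cells, against 4.57, 4.29 and 4.69 in Foxp3- CD24int cells, with Foxp3+ replicate 3 above the other two, and rose (0.94 ± 0.20, adjusted p = 0.00149). Without that array the difference was 0.60 (adjusted p = 0.0171). It was called at neither other gate. Pdk3 was higher in LN Treg (0.67 ± 0.18, adjusted p = 0.015), a call lost without any 1 of LN Treg replicate 3 and LN naive replicate 1 or without the arrays numbered 1 (0.52 to 0.64, adjusted p up to 0.117). At CD24hi Pdk3 was lower with the replicate block alone (-0.46, adjusted p = 0.00511). Pdha1, a catalytic subunit of the complex, was lower at CD24hi (-0.44 ± 0.14, adjusted p = 0.028), a call lost without any 1 of Foxp3+ CD24hi replicate 1 and Foxp3- CD24hi replicates 1 and 3, without the arrays numbered 1, with the compared groups alone in the model or averaging all probe sets (-0.44 to -0.29, adjusted p up to 0.256). Pdhb and Dlat, of the same complex, stayed between -0.21 and 0.34 in the 4 comparisons.

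Of the transcription factors, Hif1a rose in every pair and Myc did not keep 1 direction. Hif1a was at 10.92, 11.33 and 11.09 in Foxp3+ CD24hi cells, against 10.45, 10.42 and 10.41 in Foxp3- CD24hi cells (0.68 ± 0.14, adjusted p = 0.000788). It was at 10.92, 11.57 and 11.40 in Foxp3+ CD24int cells, against 10.31, 10.45 and 10.56 (0.86 ± 0.14, adjusted p = 6.29e-05), and at 11.44, 11.79 and 11.66 in Foxp3+ CD24lo cells, against 10.16, 10.45 and 10.54 (1.24 ± 0.14, adjusted p = 1.68e-07). LN Treg was at 11.72, 11.86 and 11.93, against 10.42, 10.58 and 10.53 in LN naive (1.33 ± 0.14, adjusted p = 8.95e-08), and no pair overlapped. Myc was at 9.18, 8.83 and 9.19 in Foxp3+ CD24hi cells, against 8.51, 8.74 and 8.81 in Foxp3- CD24hi cells, and rose (0.38 ± 0.12, adjusted p = 0.0355), a call lost without any 1 of Foxp3+ CD24hi replicates 1 and 3 and Foxp3- CD24hi replicates 1 and 2, without the arrays numbered 1 or with the compared groups alone in the model (0.23 to 0.41, adjusted p up to 0.309). It was at 9.11, 9.15 and 9.20 in Foxp3+ CD24lo cells, against 9.79, 9.58 and 9.56 in Foxp3- CD24lo cells, and fell (-0.49 ± 0.12, adjusted p = 0.005), a call lost without the arrays numbered 1 (-0.39, adjusted p = 0.0515). In LN Treg it was at 8.96, 9.21 and 9.31, against 9.39, 9.72 and 9.76 in LN naive, and fell (-0.46 ± 0.12, adjusted p = 0.0121), a call lost without any 1 of LN Treg replicate 1 and LN naive replicates 2 and 3 or with the compared groups alone in the model (-0.46 to -0.37, adjusted p up to 0.102).

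Treg precursors, Foxp3- and CD25+, were set against Foxp3- CD24hi thymocytes. The enolases, Hk2 and Tpi1 were higher in precursors, and Slc2a3 and Pdk1 were lower. Of 33 members, 6 rose and 2 fell (median 0.11), where 5.08% of all genes rose and 4.03% fell. With the replicate number as a block, 12 rose and 2 fell, the added calls being Dlat, Galm, Gapdh, Hif1a, Pgam1 and Pgk1 (0.32 to 0.55), where 7.83% of all genes rose and 6.85% fell with the block. Eno3 was at 11.25, 11.15 and 12.12 in precursors, against 9.39, 9.30 and 9.56 in Foxp3- CD24hi cells (2.09 ± 0.19, adjusted p = 3.67e-08). Eno2 was at 7.97, 7.49 and 8.19 in precursors, against 6.70, 6.14 and 6.28 (1.51 ± 0.21, adjusted p = 1.97e-05). Hk2 was at 6.82, 6.86 and 7.09 in precursors, against 5.97, 5.82 and 6.01 (0.99 ± 0.11, adjusted p = 3.29e-07), and Tpi1 at 9.77, 9.98 and 10.50, against 8.53, 8.78 and 9.17 (1.26 ± 0.19, adjusted p = 5.88e-05). Precursors did not overlap Foxp3- CD24hi cells in any of these 4 genes.

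Slc2a3 was the member that fell furthest in precursors, at 9.66, 9.68 and 9.88, against 10.50, 10.66 and 10.81 in Foxp3- CD24hi cells (-0.92 ± 0.12, adjusted p = 6.84e-06). Pdk1 was at 7.09, 6.73 and 6.67 in precursors, against 7.95, 7.75 and 7.49 (-0.90 ± 0.20, adjusted p = 0.00419). Neither pair of groups overlapped. Pfkfb3 (0.78 ± 0.24, adjusted p = 0.0383) and Slc16a3 (0.78 ± 0.22, adjusted p = 0.0218) were also called higher, with precursor replicate 3 the highest array for each. The Pfkfb3 call was lost without any 1 of Foxp3- CD24hi replicates 2 and 3 and Treg precursor replicate 3, without the arrays numbered 1, with the compared groups alone in the model or averaging all probe sets (0.45 to 0.98, adjusted p up to 0.31). The Slc16a3 call was lost without any 1 of Foxp3- CD24hi replicate 2 and Treg precursor replicate 3, with the compared groups alone in the model or with 16 added before the log (0.39 to 0.78, adjusted p up to 0.228). Without precursor replicate 3 the differences were 0.47 for Pfkfb3 (adjusted p = 0.31) and 0.46 for Slc16a3 (adjusted p = 0.228). Markers of double-positive thymocytes, 6 of 7 measured, averaged 7.38 in precursors (arrays 6.85 to 7.66), against 6.41 in Foxp3- CD24hi cells (arrays 6.30 to 6.54). Innate-like markers averaged 6.67, against 4.39, and cell cycle genes 8.96, against 8.70. Their part in the differences was not tested.

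Foxp3+ CD24hi cells were then set against the precursors. Slc2a3 was higher in Foxp3+ CD24hi cells, and most members that passed were lower. In all 2 members rose and 9 fell (median -0.21), where 6.77% of all genes rose and 9.27% fell. With the replicate block 3 rose and 14 fell, the added calls being Eno2 (0.58) and, lower, Ldha, Pdk3, Pfkm, Pfkp and Tpi1 (-0.49 to -0.21), where 10.2% of all genes rose and 14.3% fell with the block. Slc2a3 was at 10.81, 11.21 and 10.82 in Foxp3+ CD24hi cells, against 9.66, 9.68 and 9.88 in precursors (1.21 ± 0.12, adjusted p = 9.71e-08). Slc16a1 was at 7.88, 7.77 and 8.22 in Foxp3+ CD24hi cells, against 9.28, 9.26 and 8.78 in precursors (-1.15 ± 0.20, adjusted p = 0.000137). Pgk1 was at 10.48, 10.74 and 10.99, against 11.42, 11.59 and 11.83 (-0.88 ± 0.15, adjusted p = 0.000127), and Pgam1 at 8.61, 9.04 and 9.36, against 9.68, 9.65 and 10.05 (-0.79 ± 0.19, adjusted p = 0.00365). Each of these genes kept the 2 groups apart. Eno3 did not pass (-0.14 ± 0.19).

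Aldoa was at 10.60, 10.38 and 10.83 in Foxp3+ CD24hi cells, against 10.94, 11.12 and 11.40 in precursors (-0.55 ± 0.14, adjusted p = 0.00725), and Hk2 at 6.62, 6.39 and 6.53, against 6.82, 6.86 and 7.09 (-0.41 ± 0.11, adjusted p = 0.00734). Pkm (-0.60 ± 0.16, adjusted p = 0.00809) and Ldhb (-0.72 ± 0.20, adjusted p = 0.0124) fell as well. Slc2a1 was called higher (0.42 ± 0.14, adjusted p = 0.0351), and Gapdh (-0.43 ± 0.13, adjusted p = 0.0208) and Pfkfb3 (-0.71 ± 0.24, adjusted p = 0.041) lower. At least 1 of these 7 calls was lost without any 1 of Foxp3+ CD24hi replicates 1 and 2 and Treg precursor replicates 1 and 3, with the compared groups alone in the model, without the arrays numbered 1, after quantile normalization or averaging all probe sets (Aldoa -0.55 to -0.43, Hk2 -0.41 to -0.33, Pkm -0.60 to -0.50, Ldhb -0.65 to -0.59, Slc2a1 0.22 to 0.44, Gapdh -0.48 to -0.35, Pfkfb3 -0.71 to -0.38, adjusted p up to 0.298). Double-positive markers averaged 5.45 in Foxp3+ CD24hi cells, against 7.38 in precursors, and cell cycle genes 8.34, against 8.96. Innate-like markers averaged 5.18, against 6.67 (1 of 6 rose and 4 fell), and the part of these markers was not tested. Without precursor replicate 3 the Pfkfb3 difference was -0.40 (adjusted p = 0.298). The comparisons among Foxp3+ CD24hi, precursor and Foxp3- CD24hi cells share arrays and are not independent.

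**Figure D4:**
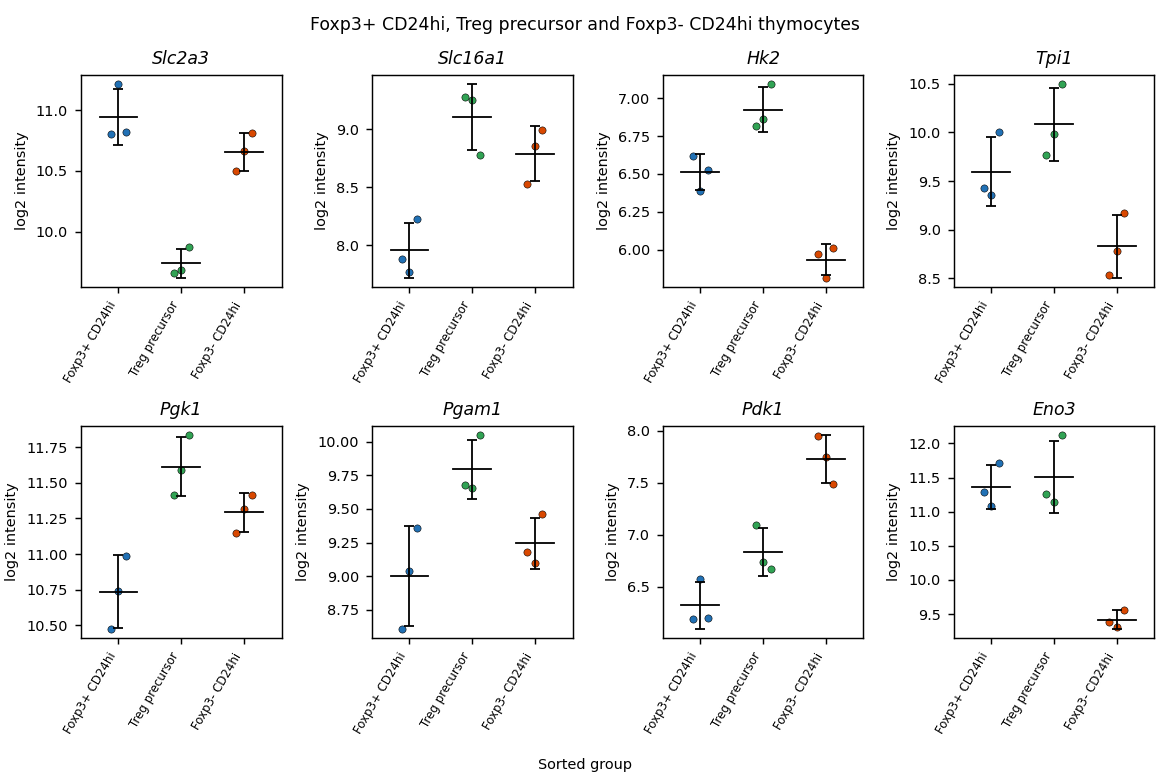
Levels of 8 members (y axis, log2 intensity) in Foxp3+ CD24hi, Treg precursor and Foxp3- CD24hi cells (x axis), with points for arrays, horizontal bars for means and error bars for SD of 3 arrays. Hk2, Tpi1, Pgk1 and Pgam1 have their highest mean in precursors, whereas Slc2a3 has its lowest there.

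Maturation was followed from CD24hi to CD24int and CD24lo within each class. In Foxp3+ cells 0 members were called between CD24hi and CD24int by limma, where 0.242% of all genes rose and 0.044% fell, and 3 had an unadjusted p under 0.05. Between CD24int and CD24lo 0 members were called as well, where 0.011% of all genes rose and 0.0055% fell, and 5 had an unadjusted p under 0.05. With the replicate block, Galm was called in the earlier of these steps (0.48, adjusted p = 0.0201), where 0.912% of all genes rose and 0.242% fell with the block. From CD24hi to CD24lo, 4 rose and 0 fell, where 2.29% of all genes rose and 0.808% fell. Aldoc was at 6.49, 6.18 and 6.36 in Foxp3+ CD24lo cells, against 5.09, 5.37 and 4.93 in Foxp3+ CD24hi cells, apart and higher (1.22 ± 0.19, adjusted p = 0.000375). Galm was at 7.89, 7.91 and 8.15 in Foxp3+ CD24lo cells, against 7.11, 6.94 and 7.29 in Foxp3+ CD24hi cells (0.87 ± 0.13, adjusted p = 0.00025). Aldoa was at 11.13, 11.14 and 11.30 in Foxp3+ CD24lo cells, against 10.60, 10.38 and 10.83 in Foxp3+ CD24hi cells, apart and higher (0.59 ± 0.14, adjusted p = 0.0162). Hif1a rose too (0.52 ± 0.14, adjusted p = 0.0399). The Aldoa call was lost without any 1 of Foxp3+ CD24hi replicates 1 and 2 and Foxp3+ CD24lo replicate 3, without the arrays numbered 1, with the compared groups alone in the model or averaging all probe sets (0.47 to 0.61, adjusted p up to 0.126). The Hif1a call was lost without any 1 of Foxp3+ CD24hi replicates 1 and 3 and Foxp3+ CD24lo replicates 2 and 3 or with the compared groups alone in the model (0.42 to 0.52, adjusted p up to 0.229). With the replicate block, 6 rose and 1 fell, the added calls being Tpi1 (0.60), Pgk1 (0.26) and Eno3 (-0.54), where 4.77% of all genes rose and 2.38% fell with the block.

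In Foxp3- cells the same interval changed 13 members, 6 up and 7 down, where 9.16% of all genes rose and 7.56% fell. Ldhb, Eno2, Slc2a3, Pfkm and Pkm ended lower, and Myc, Tpi1 and Pgam1 higher. Double-positive markers averaged 4.90 in Foxp3- CD24lo cells and 5.31 in Foxp3- CD24int cells, against 6.41 in Foxp3- CD24hi cells (0 of 6 rose and 4 fell over the interval), and their part was not tested. Between CD24hi and CD24int 1 member rose and 5 fell, where 2.26% of all genes rose and 2.75% fell. With the replicate block 1 rose and 10 fell, the added calls being Aldoa, Pdha1, Pdk3, Pgk1 and Pkm (-0.47 to -0.26), where 4.48% of all genes rose and 5.53% fell with the block. Between CD24int and CD24lo 7 rose and 2 fell, where 7.86% of all genes rose and 4.13% fell. The replicate block added higher Myc and lower Eno3, Pfkm and Pkm (-0.48 to 0.33) to that step, and lower Pdha1 (-0.37) and higher Pgk1 (0.24) to the whole interval. With the block 11.6% of all genes rose and 7.15% fell in that step, and 12.6% of all genes rose and 10.7% fell over the interval. Ldhb fell at each step (-0.98 ± 0.20 and -1.24 ± 0.20) and over the whole interval (-2.23 ± 0.20, adjusted p = 4.3e-09). Eno2 also stood lower at CD24lo than at CD24hi (-1.60 ± 0.21, adjusted p = 2.94e-06). Foxp3- CD24lo arrays were at 7.37, 7.17 and 7.50 for Pfkm, against 8.38, 8.09 and 8.09 in Foxp3- CD24hi cells (-0.84 ± 0.13, adjusted p = 1.77e-05). They were at 10.33, 10.34 and 10.44 for Pkm, against 11.24, 11.01 and 11.31 (-0.82 ± 0.16, adjusted p = 0.000308). Slc2a3 had already fallen by CD24int (-0.82 ± 0.12, adjusted p = 6.46e-05), with arrays at 9.77, 9.67 and 10.08 in Foxp3- CD24int cells, against 10.50, 10.66 and 10.81 in Foxp3- CD24hi cells. Myc rose, at 9.79, 9.58 and 9.56 in Foxp3- CD24lo cells, against 8.51, 8.74 and 8.81 in Foxp3- CD24hi cells (0.95 ± 0.12, adjusted p = 2.1e-06).

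Several glycolytic genes rose between CD24int and CD24lo in Foxp3- cells. Hk2 was at 6.27, 6.23 and 6.28 in Foxp3- CD24lo cells, against 5.14, 5.37 and 5.26 in Foxp3- CD24int cells (1.00 ± 0.11, adjusted p = 1.36e-07). Tpi1 was at 9.80, 9.92 and 10.14 in Foxp3- CD24lo cells, against 8.78, 8.69 and 8.99 (1.13 ± 0.19, adjusted p = 0.00014). Aldoa was at 11.36, 11.32 and 11.52, against 10.44, 10.51 and 10.85 (0.81 ± 0.14, adjusted p = 0.000167), and Pgam1 at 9.81, 9.89 and 10.21, against 9.01, 8.92 and 9.18 (0.93 ± 0.19, adjusted p = 0.000853). The CD24lo and CD24int arrays were apart in all 4 genes. Innate-like markers moved with this step. Zbtb16, which marks natural killer T cells, was at 10.90 ± 0.28 in Foxp3- CD24lo cells, against 6.89 ± 0.89 in Foxp3- CD24int cells (SD, n = 3). Klrd1 was at 9.74 ± 0.33, against 6.01 ± 0.99, and Cxcr6 at 9.87 ± 0.42, against 6.26 ± 1.15. Dissociation stress genes averaged 10.70 in Foxp3- CD24lo cells, against 10.27 in Foxp3- CD24int cells. Their part in the glycolytic differences was not tested.

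Other calls of the Foxp3- steps depended on single arrays or on the setting. Between CD24int and CD24lo these were Pfkfb3 (0.81 ± 0.24, adjusted p = 0.0231), Pfkp (0.44 ± 0.11, adjusted p = 0.0107), Pgk1 (0.51 ± 0.15, adjusted p = 0.0224) and Eno2 (-0.86 ± 0.21, adjusted p = 0.00681). At least 1 of them was lost without any 1 of Foxp3- CD24int replicates 1, 2 and 3 and Foxp3- CD24lo replicates 1, 2 and 3, without the arrays numbered 1, averaging all probe sets or with the compared groups alone in the model (Pfkfb3 0.56 to 0.92, Pfkp 0.34 to 0.44, Pgk1 0.40 to 0.51, Eno2 -0.73 to -0.67, adjusted p up to 0.146). Between CD24hi and CD24int they were Eno2 (-0.74 ± 0.21, adjusted p = 0.0431) and Pfkm (-0.46 ± 0.13, adjusted p = 0.0327). At least 1 was lost without any 1 of Foxp3- CD24hi replicates 1 and 3 and Foxp3- CD24int replicates 1, 2 and 3, without the arrays numbered 1, with the compared groups alone in the model, with 16 added before the log or after quantile normalization (Eno2 -0.79 to -0.50, Pfkm -0.51 to -0.36, adjusted p up to 0.311). Hk2 (-0.68 ± 0.11, adjusted p = 0.000155), Myc (0.62 ± 0.12, adjusted p = 0.00225), Slc2a3 and Ldhb kept their calls there in every setting run. From CD24hi to CD24lo, Tpi1 (1.12 ± 0.19, adjusted p = 9.71e-05) kept its call in every setting run, and Pgam1 (0.72 ± 0.19, adjusted p = 0.00637) lost it without Foxp3- CD24lo replicate 3 (0.60, adjusted p = 0.0511). Pfkp (0.41 ± 0.11, adjusted p = 0.0128), Eno3 (-0.65 ± 0.19, adjusted p = 0.019), Hk2 (0.32 ± 0.11, adjusted p = 0.0348), Pdk1 (-0.60 ± 0.20, adjusted p = 0.0461) and Aldoa (0.40 ± 0.14, adjusted p = 0.0492) completed that list. At least 1 of these 5 was lost without any 1 of Foxp3- CD24hi replicates 1, 2 and 3 and Foxp3- CD24lo replicates 1, 2 and 3, with the compared groups alone in the model, without the arrays numbered 1, with a trended, robust prior, after quantile normalization or averaging all probe sets (Pfkp 0.33 to 0.41, Eno3 -0.72 to -0.54, Hk2 0.27 to 0.34, Pdk1 -0.67 to -0.43, Aldoa 0.28 to 0.44, adjusted p up to 0.309).

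Without replicate 3 of Foxp3- CD24hi, the array on which liver genes were high, 6 calls of members were lost. Pdha1 then differed by -0.43 between Foxp3+ and Foxp3- CD24hi cells (adjusted p = 0.0739), and Pfkfb3 by 0.72 between precursors and Foxp3- CD24hi cells (adjusted p = 0.114). From CD24hi to CD24int in Foxp3- cells, Eno2 differed by -0.78 (adjusted p = 0.0799) and Pfkm by -0.51 (adjusted p = 0.05). From CD24hi to CD24lo, Eno3 differed by -0.58 (adjusted p = 0.081) and Pfkp by 0.36 (adjusted p = 0.0648). The other calls of members in these comparisons were kept without this array.

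The interaction of class and maturation asks whether the change from CD24hi to CD24lo differed between Foxp3+ and Foxp3- cells. It was called for 7 members, positive for 6 and negative for Myc, with 4.09% of all genes positive and 4.45% negative. Ldhb had the largest value (2.17 ± 0.28, adjusted p = 5.79e-06), with a difference of -0.06 in Foxp3+ cells and of -2.23 in Foxp3- cells. For Eno2 (1.39 ± 0.30, adjusted p = 0.00285) these differences were -0.21 in Foxp3+ and -1.60 in Foxp3- cells, where its CD24lo mean was below 5 log2 units. For Galm (1.07 ± 0.19, adjusted p = 0.000341) they were 0.87 in Foxp3+ and -0.20 in Foxp3- cells, and for Slc2a3 (0.97 ± 0.17, adjusted p = 0.000304) 0.14 and -0.83. Pkm (0.95 ± 0.22, adjusted p = 0.00487) had 0.14 in Foxp3+ and -0.82 in Foxp3- cells, and Pfkm (0.72 ± 0.18, adjusted p = 0.00936) -0.12 and -0.84. Myc (-0.86 ± 0.18, adjusted p = 0.00153) had 0.09 in Foxp3+ and 0.95 in Foxp3- cells. All 4 Ldhb probe sets had an interaction of 2.16 to 2.60, whereas the 2 dimmer Galm probe sets stood at 0.34 and 0.39.

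Innate-like markers moved with this interaction, at 5.08 in Foxp3+ CD24lo cells, against 9.18 in Foxp3- CD24lo cells. At CD24int, where they averaged 5.20 in Foxp3+ cells, against 5.97 in Foxp3- cells, the interaction of class with the step from CD24hi to CD24int was computed too. Other lists moved in that step. Double-positive markers went from 6.41 to 5.31 in Foxp3- cells and from 5.45 to 5.33 in Foxp3+ cells. Cell cycle genes went from 8.70 to 9.45 and from 8.34 to 8.06, in the same order. The part of these lists was not tested. In that step Slc2a3 (0.95, adjusted p = 0.00238) and Galm (0.77, adjusted p = 0.0346) were called. Ldhb (0.95, adjusted p = 0.0954), Eno2 (0.60, adjusted p = 0.416), Pkm (0.36), Pfkm (0.45) and Myc (-0.52) were not. The share of all genes called in this shorter interaction is not given here, so the calls cannot be set against it. In the interaction from CD24hi to CD24lo, the calls of Pkm (0.98, adjusted p = 0.0509), Pfkm (0.64, adjusted p = 0.051) and Myc (-0.62, adjusted p = 0.0678) were lost without the arrays numbered 1.

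**Figure D5:**
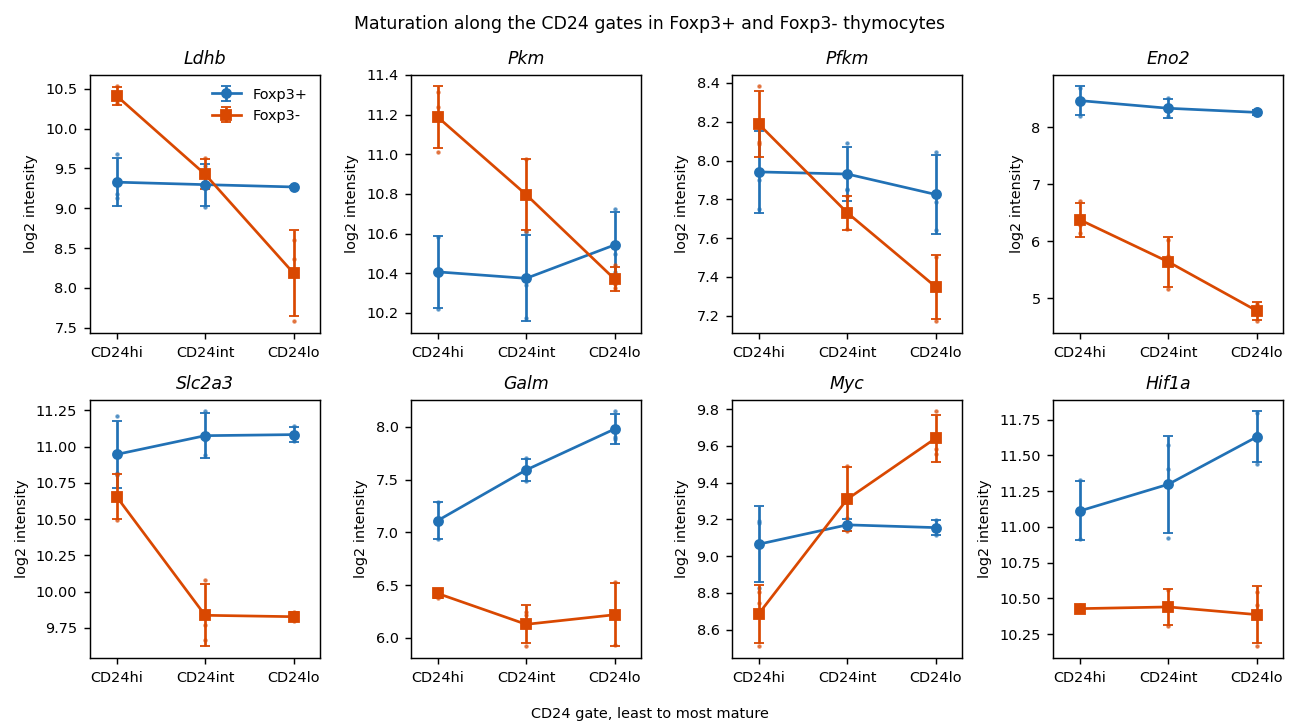
Levels of 8 members (y axis, log2 intensity) along the CD24 gates (x axis) in Foxp3+ (circles) and Foxp3- (squares) thymocytes, with means joined by lines, error bars for SD of 3 arrays and dots for arrays. Ldhb, Eno2, Pkm and Pfkm run nearly level in Foxp3+ cells and downwards in Foxp3- cells, Galm runs upwards in Foxp3+ cells, and Myc runs upwards in Foxp3- cells.

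Lymph node cells were set against the CD24lo thymocytes of their class, the most mature in thymus. Between LN Treg and Foxp3+ CD24lo cells 1 member rose and 3 fell, where 3.15% of all genes rose and 2.78% fell. With the replicate block 1 rose and 6 fell, the added calls being Aldoa, Eno3 and Pkm (-0.62 to -0.36), where 5.7% of all genes rose and 4.86% fell with the block. Eno2 was at 6.71, 5.89 and 6.41 in LN Treg, against 8.31, 8.24 and 8.22 in Foxp3+ CD24lo cells, apart and lower (-1.92 ± 0.21, adjusted p = 1.21e-06). Tpi1 (-0.80 ± 0.19, adjusted p = 0.0105) and Pfkm (-0.49 ± 0.13, adjusted p = 0.018) fell and Galm rose (0.53 ± 0.13, adjusted p = 0.0155). At least 1 of these 3 calls was lost without any 1 of Foxp3+ CD24lo replicates 1, 2 and 3 and LN Treg replicates 2 and 3, without the arrays numbered 1 or with the compared groups alone in the model (Tpi1 -0.90 to -0.65, Pfkm -0.49 to -0.38, Galm 0.44 to 0.49, adjusted p up to 0.208). B cell markers, 3 of 4 measured, averaged 6.39 in LN Treg, against 4.85 in Foxp3+ CD24lo cells, and their part was not tested.

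Between LN naive and Foxp3- CD24lo cells 2 members rose and 9 fell, where 6.03% of all genes rose and 8.58% fell. The falls included Hk2, Tpi1, Gapdh, Pgk1 and Pgam1, which stand along the chain from hexokinase to phosphoglycerate mutase. On the same stretch Hk1 (0.01), Pfkm (-0.02), Aldoa (-0.21) and Aldoc (-0.07) were not called. Nor was Pfkl, at 0.29 with the probe set used and at -0.58 and -0.38 with the others. Hk2 was at 5.34, 5.37 and 5.33 in LN naive, against 6.27, 6.23 and 6.28 in Foxp3- CD24lo cells (-0.91 ± 0.11, adjusted p = 5.46e-07). Tpi1 was at 8.28, 8.32 and 8.47 in LN naive, against 9.80, 9.92 and 10.14 (-1.60 ± 0.19, adjusted p = 1.1e-06), and Pgam1 at 8.73, 8.90 and 9.00, against 9.81, 9.89 and 10.21 (-1.09 ± 0.19, adjusted p = 0.000118). Pgk1 was at 10.65, 10.74 and 10.91 in LN naive, against 11.28, 11.63 and 11.71 (-0.77 ± 0.15, adjusted p = 0.000479), and Gapdh at 11.62, 11.60 and 11.63, against 12.13, 12.26 and 12.28 (-0.61 ± 0.13, adjusted p = 0.00119). In these 5 genes every LN naive array was below every Foxp3- CD24lo array. LN naive means were 5.34 (Hk2), 8.35 (Tpi1), 8.88 (Pgam1), 10.77 (Pgk1) and 11.62 (Gapdh). Foxp3- CD24int means were 5.26, 8.82, 9.04, 11.03 and 12.04, in the same order. LN naive was not compared with Foxp3- CD24int cells by a test, so the falls hold against the CD24lo group alone. Innate-like markers averaged 6.84 in LN naive, against 9.18 in Foxp3- CD24lo cells, and cell cycle genes 7.53, against 8.96. B cell markers, 3 of 4 measured, averaged 5.94 in LN naive, against 4.22 in Foxp3- CD24lo cells, and 12 dissociation stress genes 10.00, against 10.70. Their part was not tested.

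The other calls of that comparison were lower Pfkp, at 9.81, 9.56 and 9.87 in LN naive, against 10.35, 10.04 and 10.21 in Foxp3- CD24lo cells (-0.45 ± 0.11, adjusted p = 0.00699), lower Slc16a1 (-0.67 ± 0.20, adjusted p = 0.0191), Pdk3 (-0.64 ± 0.18, adjusted p = 0.0191) and Eno2 (-0.64 ± 0.21, adjusted p = 0.0454), and higher Ldhb (0.70 ± 0.20, adjusted p = 0.0162) and Galm (0.47 ± 0.13, adjusted p = 0.0164). At least 1 of these 6 was lost without any 1 of Foxp3- CD24lo replicates 1, 2 and 3 and LN naive replicates 1, 2 and 3, averaging all probe sets, without the arrays numbered 1, with 16 added before the log or with the compared groups alone in the model (Pfkp -0.38 to -0.29, Slc16a1 -0.66 to -0.53, Pdk3 -0.63 to -0.52, Eno2 -0.71 to -0.37, Ldhb 0.40 to 0.70, Galm 0.33 to 0.49, adjusted p up to 0.218). Without Foxp3- CD24lo replicate 1 the Ldhb difference was 0.40 (adjusted p = 0.176). Eno2 was dim in both groups.

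Whether the Foxp3 class difference itself changed between CD24lo thymocytes and lymph node was tested as a further interaction, called for 6 members, 4 positive and 2 negative, with 7.05% of all genes positive and 3.92% negative. Of 6 innate-like markers 5 were positive and 0 negative in it (median 2.70), and of 19 cell cycle genes 15 were positive and 0 negative (median 1.95). Their levels are given with the class comparisons, and their part was not tested. For Eno2 (-1.29 ± 0.30, adjusted p = 0.00475) the class difference was 2.19 in lymph node and 3.48 at CD24lo. Both were taken against groups with Eno2 below 5 log2 units, so neither size, nor the difference between them, can be read exactly. Ldhb (-1.05 ± 0.28, adjusted p = 0.0135) had a class difference of 0.03 in lymph node and 1.08 at CD24lo. Hk2 (0.62 ± 0.15, adjusted p = 0.00576) had 0.79 in lymph node and 0.16 at CD24lo, and Pfkp (0.62 ± 0.16, adjusted p = 0.0114) had -0.09 and -0.71. Slc16a1 (0.90 ± 0.28, adjusted p = 0.0345) and Pgk1 (0.67 ± 0.21, adjusted p = 0.0386) were called too. At least 1 of the calls of Ldhb, Pfkp, Slc16a1 and Pgk1 was lost without any 1 of Foxp3+ CD24lo replicates 1 and 2, Foxp3- CD24lo replicates 2 and 3, LN Treg replicates 1, 2 and 3 and LN naive replicates 1 and 2, without the arrays numbered 1 or averaging all probe sets (Ldhb -0.71, Pfkp 0.38 to 0.50, Slc16a1 0.75 to 0.91, Pgk1 0.58 to 0.70, adjusted p up to 0.188).

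Genes around the pathway were counted from lists drawn up by known function. Averaged over CD24, 5 of 34 other glycolysis and pyruvate genes rose and 3 fell in Foxp3+ cells, where 14.5% of all genes rose and 16% fell. Gpd2, the mitochondrial glycerol phosphate dehydrogenase, was lower (-0.81 ± 0.11, adjusted p = 1.03e-06), Ugp2, of glycogen synthesis, higher (0.44 ± 0.09, adjusted p = 0.000187) and Pgm2, a phosphoglucomutase family member, lower (-0.40 ± 0.08, adjusted p = 0.000277). Gpd2 was lower in LN Treg as well (-0.99 ± 0.18, adjusted p = 0.000335). Of 9 pentose phosphate genes 2 rose and 5 fell, and of 19 citric acid cycle genes 3 rose and 4 fell. Of 14 other HIF-1 targets 6 rose and 4 fell, and of 15 other Myc targets 1 rose and 9 fell, to be read against the same shares. The list medians were -0.05, -0.17, -0.08, 0.07 and -0.33, in the order of the lists just given, beside -0.01 over all genes.

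Around the precursors, 6 of 15 other Myc targets rose and 0 fell in precursors relative to Foxp3- CD24hi cells (median 0.42), where 5.08% of all genes rose and 4.03% fell. In Foxp3+ CD24hi cells 0 rose and 13 fell relative to precursors (median -0.53), where 6.77% of all genes rose and 9.27% fell. These comparisons share the precursor arrays. Myc itself was called in neither comparison, at 0.27 ± 0.12 in precursors and 0.10 ± 0.12 in Foxp3+ CD24hi cells. Of 14 other HIF-1 targets, 1 rose and 4 fell in precursors relative to Foxp3- CD24hi cells. In LN Treg, where Hif1a was higher, 4 of the 14 rose and 1 fell relative to LN naive, where 8.01% of all genes rose and 4.35% fell.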

How the data were processed

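Labelled RNA, prepared from 50 ng per the labels' protocols, was hybridised to 27 Affymetrix 3' arrays. The authors deposited 1 linear intensity per probe set and array, made by RMA per the submitters' processing notes, which give no version or settings. The lowest value was 3.55 and the highest 24083, array medians lay between 30.3 and 32.0, and their log2 was taken here. Differences in raw brightness between whole arrays cannot be read from these processed values. The median standard error over all genes was 0.15 log2 units in comparisons between a pair of groups.

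Of 45101 probe sets, 34958 had a single gene symbol in GEO's platform annotation, 932 had several and 9211 had none. The probe set with the highest mean stood for each of 18194 genes, of which 9012 had several. One limma 3.58.1 model in R 4.3.3 fitted 9 group means over 27 arrays, on 18 residual and 5.98 prior degrees of freedom, and p-values were adjusted by Benjamini-Hochberg over all genes in each of 17 comparisons. The method was tested on simulated data with independent noise on every array. That test leaves out the shared deviations of same-numbered arrays given below, so it does not cover them. Replicates of a group correlated at 0.987 to 0.997.

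Replicate numbers come from the sample descriptions, which do not say what they share. Deviations from group means correlated above 0.1 in 97 of 108 same-numbered pairs (median r = 0.268, against -0.122 for other pairs), and in all pairs of 11 comparisons, where the blocked value is given if it changes a call.

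The members and all lists were chosen with earlier results of these data known. Array values are given for members that passed and were among the 6 smallest p of a comparison and for the 8 with the widest range of group means, with up to 3 genes of the related list and 3 markers named. Alternatives were the replicate block, quantile normalization, 16 added before the log, genes under 5 log2 units in all groups left out, the mean of all probe sets, the compared groups alone, a trended and robust prior, and each array left out. The averages without CD24lo, the CD24int interaction and the fits without arrays numbered 1 were chosen after seeing the data. Promoters were matched by symbol to a RefSeq table.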

Additional observations from a re-analysis of the deposited data

Results flagged for a closer look

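The change from CD24hi to CD24lo differed between Foxp3+ and Foxp3- thymocytes for 7 members by the interaction in limma, tested over all genes. The interaction, Foxp3+ minus Foxp3-, was 2.17 ± 0.28 for Ldhb (adjusted p = 5.79e-06), 1.39 ± 0.30 for Eno2 (adjusted p = 0.00285), which was dim in Foxp3- CD24lo cells, and 1.07 ± 0.19 for Galm (adjusted p = 0.000341). It was 0.97 ± 0.17 for Slc2a3 (adjusted p = 0.000304), 0.95 ± 0.22 for Pkm (adjusted p = 0.00487), 0.72 ± 0.18 for Pfkm (adjusted p = 0.00936) and -0.86 ± 0.18 for Myc (adjusted p = 0.00153).

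The difference between the Foxp3 classes changed between lymph node and CD24lo thymocytes for 6 members. The interaction, lymph node minus CD24lo, was 0.90 ± 0.28 for Slc16a1 (adjusted p = 0.0345), 0.67 ± 0.21 for Pgk1 (adjusted p = 0.0386), 0.62 ± 0.15 for Hk2 (adjusted p = 0.00576) and 0.62 ± 0.16 for Pfkp (adjusted p = 0.0114). It was -1.29 ± 0.30 for Eno2 (adjusted p = 0.00475), which was dim in LN naive and Foxp3- CD24lo cells, and -1.05 ± 0.28 for Ldhb (adjusted p = 0.0135). Of 19 cell cycle genes 15 were positive in this interaction, and of 6 innate-like markers 5. Both interactions use the CD24lo groups, so they share arrays.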

How the results depend on the processing

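In the model with the replicate block, members called numbered 14 (8 without it) between precursors and Foxp3- CD24hi cells, 17 (11) between Foxp3+ CD24hi cells and precursors, 11 (6) for CD24int against CD24hi in Foxp3- cells and 7 (4) for LN Treg against Foxp3+ CD24lo cells. In Foxp3+ cells they numbered 1 (0) for CD24int and 7 (4) for CD24lo, each against CD24hi. The maturation interaction gained Hif1a, Hk2, Pfkp, Pgam1 and Tpi1 (12 called, against 7) and the tissue interaction Pdk3, Pfkm, Pgam1 and Tpi1 (10, against 6). The block raised the share of all genes called too, for instance from 9.27% to 14.3% lower in Foxp3+ CD24hi cells than in precursors. That share is not given here for the interactions with the block or for the other settings of this section. Their counts are therefore no result about the members as a set. The block removed 0 of the calls of members made without it. With the compared groups alone, 5 members were called between Foxp3+ CD24hi cells and precursors, 2 between Foxp3+ CD24lo and CD24hi cells and 12 in the tissue interaction, the last against 6 with all groups. This setting has fewer residual degrees of freedom. Without the arrays numbered 1, the counts were 7 between Foxp3+ CD24hi cells and precursors, 1 between LN Treg and Foxp3+ CD24lo cells and 4 in the maturation interaction. With CD24int in place of CD24lo that interaction was called for 2 members, Slc2a3 and Galm.

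Leaving out 1 array at a time gave 2 to 4 members called for LN Treg against Foxp3+ CD24lo cells, 7 to 9 for LN naive against Foxp3- CD24lo cells, 5 to 13 for Foxp3+ CD24hi cells against precursors and 2 to 4 for Foxp3+ CD24lo against CD24hi. The lowest of these counts came without Foxp3+ CD24lo replicate 1 or LN Treg replicate 2 for LN Treg, without Foxp3- CD24lo replicate 1 or LN naive replicate 2 for LN naive, without Foxp3+ CD24hi replicate 2 or precursor replicate 3 (7 without Foxp3+ CD24hi replicate 1) for the precursors, and without Foxp3+ CD24hi replicate 1 or Foxp3+ CD24lo replicate 3 for the Foxp3+ gates. Between the classes, leaving out 1 array gave 11 to 14 at CD24hi, 11 to 14 at CD24int and 12 to 16 at CD24lo, and 18 to 19 averaged. Pfkl was not called between CD24int and CD24lo in Foxp3- cells. It was called with the opposite sign when all its probe sets were averaged (0.33, adjusted p = 0.0237). Its brightest probe set, used elsewhere, differed by -0.09 in that step, and the others by 0.71 and 0.38. Why the probe sets differ was not tested. Quantile normalization ended 3 calls of members over the 17 comparisons, the trended prior 1, the added 16 ended 4 and the mean of all probe sets 13. The compared groups alone ended 24, and leaving out the arrays numbered 1 ended 38, the largest of these numbers. The filter on dim genes ended 0 but left out Pdk4 and Slc16a3, whose differences are limited by low signal.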
